A study of Mus musculus with 13 samples.

Results

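The transcripts of 10 genes of the NF-κB system were followed through the midbrains of mice given the neurotoxin MPTP or saline: the 5 genes of the DNA-binding subunits (Nfkb1, Rela, Rel, Nfkb2 and Relb), the atypical inhibitor genes Bcl3 and Nfkbiz, the feedback inhibitor genes Nfkbia and Tnfaip3, and the kinase gene Ikbke. They were taken by symbol from the 49315 genes of the count files, and all 10 passed the filter on low counts, as did 19360 genes in total. The fewest reads that any of them had in any library was 15, for Bcl3.

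RNA-Seq was performed on whole midbrain homogenates of male mice, 8 to 12 weeks old and on a C57BL/6J background, with each library made from a distinct animal. The mice were Ripk3fl/fl Aldh1l1Cre+ (here Cre+), in which a tamoxifen-inducible Cre driven by the astrocyte gene Aldh1l1 deletes the necroptosis kinase gene Ripk3, or Ripk3fl/fl Aldh1l1Cre- (here Cre-), which carry the same floxed alleles without Cre. All animals, controls included, had 60 mg/kg tamoxifen for 5 days, at least 1 week earlier, and then 5 daily i.p. injections of MPTP (20 mg/kg) or saline, and tissue was taken 3 days after the last of them. There were 3 mice in each of Cre- Saline, Cre+ Saline and Cre- MPTP, and 4 in Cre+ MPTP. In such bulk tissue every cell type contributes reads, cells outside the astrocyte lineage keep Ripk3, and fewer cells of a type cannot be told apart from less RNA per cell.

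NF-κB factors are dimers that wait in the cytoplasm, held there by inhibitors of the IκB family, until cytokine or pattern recognition receptors switch on the IκB kinases. The freed dimers enter the nucleus and switch on inflammatory genes, and also the genes of their own inhibitors, which closes a negative feedback loop. In the brain the pathway operates in astrocytes, microglia and endothelium, among other cells, and it is best known there for the response to injury and infection.

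The libraries held 11489150 to 29397278 counts (median 24907639). Cre- MPTP replicate 1 stood apart: it had the lowest total, 21101 genes with a count (25432 to 27186 in the other 12 libraries), 1.12% of counts on mitochondrial genes (3.55% to 6.06% in the others) and a summed level of the 6 astrocyte markers of 2030 CPM (counts per 1000000 counts), below the 3380 to 4100 CPM of the others. Cre+ MPTP replicate 4 held 6310 CPM of 5 muscle markers, which summed to 9.2 to 146 CPM elsewhere. Ripk3 itself was near the limit of detection (0.159 to 1.32 CPM, 4 to 40 reads a library), did not pass the test between genotypes under saline or MPTP (adjusted p = 1 and 0.224), and so did not check the genotype labels. Of the defining markers of the tissue, all 6 of astrocytes and all 6 of dopaminergic neurons were detected in every group.

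With MPTP in Cre- mice, 6 of the 10 transcripts rose and none fell: Bcl3, Nfkbia, Nfkb2, Tnfaip3, Nfkbiz and Ikbke. Of all genes tested, 2.23% were called higher and 0.956% lower in that comparison. For 7 members, the 6 and Relb, all Cre- MPTP libraries lay above all Cre- Saline libraries, as they did for 7.11% of all genes (8.02% lay below). With MPTP in Cre+ mice no member was called, and edgeR called no other gene either (0% of all genes, in either direction). DESeq2 and limma voom did call other genes there, as given below. Between the genotypes under MPTP the 6 named genes were lower in Cre+ mice, where 1.03% of all genes were called lower and 0.517% higher. A call here is an adjusted p under 0.05 (edgeR, quasi-likelihood F test, adjusted by Benjamini-Hochberg over all 19360 genes), and every adjusted p given for a gene comes from that test unless another is named. The median log2 fold change of the 10 members was 1.79 with MPTP in Cre- mice (0.025 over all genes), 0.22 in Cre+ mice (0.003 over all genes) and -1.44 between the genotypes under MPTP (0.03 over all genes). The first and the last of these comparisons share the 3 Cre- MPTP libraries.

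**Figure D1:**
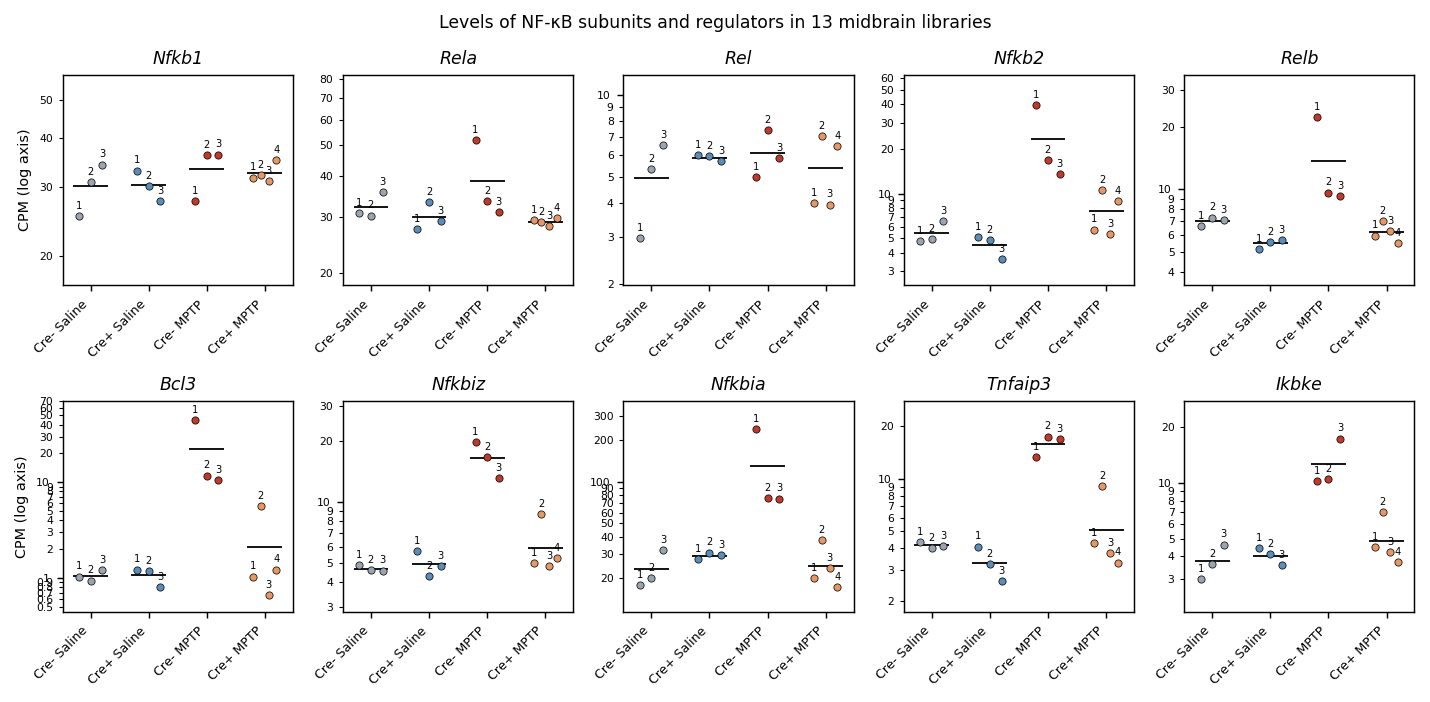
CPM of each member (log axis, its range set per gene) in each of the 13 libraries, with 1 point per library labelled by its replicate number and a bar at the group mean. For Bcl3, Nfkbiz, Nfkbia, Tnfaip3, Ikbke and Nfkb2 all 3 Cre- MPTP points lie above every other point, while Nfkb1 and Rel have overlapping groups.

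Nfkbia (chr12:55489411-55492647, minus strand, GRCm38) encodes IκBα, the inhibitor that captures RELA-containing dimers and whose resynthesis ends a pulse of signaling. It had 17.9, 20.1 and 32.1 CPM in Cre- Saline, 27.7, 30.8 and 29.4 CPM in Cre+ Saline, 242, 75.9 and 75.7 CPM in Cre- MPTP, and 20.1, 38.1, 23.6 and 17.2 CPM in Cre+ MPTP. The lowest Cre- MPTP library was thus above the highest of any other group, and replicate 1 was far above its 2 fellows, while the Cre+ MPTP libraries overlapped both saline groups. Nfkbia rose 5.61-fold with MPTP in Cre- mice (log2 fold change 2.49 ± 0.453 (SE), adjusted p = 0.00839) and was 5.3-fold lower in Cre+ than in Cre- mice under MPTP (log2 fold change -2.41 ± 0.408, adjusted p = 0.0154). Without Cre- MPTP replicate 1 these log2 fold changes were 1.70 and -1.63, both still called. The rise was not called without Cre- Saline replicate 1 or 2 (adjusted p = 0.0584 and 0.0564), nor the genotype difference without Cre+ MPTP replicate 1, 3 or 4 (adjusted p = 0.062, 0.0606 and 0.0503).

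Tnfaip3 (chr10:19000910-19015657, minus strand) encodes A20, a ubiquitin-editing enzyme that shuts off signaling upstream of the IκB kinases. Its CPM values were 4.36, 4.02 and 4.12 in Cre- Saline, 4.1, 3.25 and 2.62 in Cre+ Saline, 13.2, 17.3 and 16.7 in Cre- MPTP, and 4.28, 9.05, 3.77 and 3.32 in Cre+ MPTP. Here the Cre- MPTP libraries were close together, replicate 1 being the lowest of the 3, and Cre+ MPTP replicate 2 lay between that group and all the rest. Tnfaip3 rose 3.78-fold with MPTP in Cre- mice (log2 fold change 1.92 ± 0.34, adjusted p = 0.00704), a call that held with each Cre- library left out. It was 3.1-fold lower in Cre+ than Cre- mice under MPTP (log2 fold change -1.63 ± 0.307, adjusted p = 0.0236), which was not called without Cre+ MPTP replicate 1, 3 or 4 (adjusted p = 0.0899, 0.086 and 0.0639).

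Bcl3 (chr7:19808462-19822770, minus strand) and Nfkbiz (chr16:55811375-55838899, minus strand) encode nuclear IκB proteins, which bind p50 or p52 homodimers at chromatin and can raise as well as lower transcription. Bcl3 showed the widest range of the 10 genes: 1.03, 0.936 and 1.2 CPM in Cre- Saline, 1.22, 1.18 and 0.799 CPM in Cre+ Saline, 44.3, 11.7 and 10.6 CPM in Cre- MPTP, and 1.03, 5.59, 0.665 and 1.22 CPM in Cre+ MPTP. Apart from Cre+ MPTP replicate 2, the Cre+ MPTP libraries were within or just below the saline range. Bcl3 rose 20.7-fold in Cre- mice (log2 fold change 4.37 ± 0.804, adjusted p = 0.00891) and was 10.5-fold lower in Cre+ mice under MPTP (log2 fold change -3.40 ± 0.684, adjusted p = 0.0314). Without Cre- MPTP replicate 1 the values were 3.39 and -2.44, both called. The rise was no longer called without Cre- Saline replicate 1 or 2 (adjusted p = 0.0584 and 0.0613), and neither was the genotype difference without Cre+ MPTP replicate 1, 3 or 4 (adjusted p = 0.106, 0.0932 and 0.0908). Without Cre+ MPTP replicate 2 the genotype difference was -4.46. Of the 2475 bases of Bcl3 exons, 161 are shared with Gm16175 on the opposite strand (159 and 65 bases of Ikbke with Gm28914 and Gm28913, and 4 of Nfkb2 with Psd), and the strand setting of the counting is not given in the sources used here.

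Nfkbiz had 4.84, 4.6 and 4.56 CPM in Cre- Saline, 5.71, 4.27 and 4.79 CPM in Cre+ Saline, 19.9, 16.7 and 13.2 CPM in Cre- MPTP, and 4.95, 8.72, 4.79 and 5.26 CPM in Cre+ MPTP. As for Tnfaip3, Cre+ MPTP replicate 2 lay between the Cre- MPTP libraries and all others. Nfkbiz had the lowest adjusted p of the 10 genes in both called comparisons. It rose 3.55-fold in Cre- mice (log2 fold change 1.83 ± 0.254, adjusted p = 0.00217), called with each Cre- library left out, and was 2.8-fold lower in Cre+ mice under MPTP (log2 fold change -1.49 ± 0.23, adjusted p = 0.0115). The genotype difference remained called without Cre+ MPTP replicate 4 and just missed the threshold without replicate 1 or 3 of that group (adjusted p = 0.051 and 0.0508).

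Ikbke (chr1:131254343-131279606, minus strand) encodes IKKε, a noncanonical relative of the IκB kinases that acts in interferon and NF-κB signaling. Its levels were 3.01, 3.63 and 4.63 CPM in Cre- Saline, 4.45, 4.1 and 3.58 CPM in Cre+ Saline, 10.2, 10.5 and 17.4 CPM in Cre- MPTP, and 4.5, 6.93, 4.21 and 3.74 CPM in Cre+ MPTP. In contrast to Nfkbia, Bcl3 and Nfkb2, the high library of the Cre- MPTP group was replicate 3. The rise in Cre- mice was 3.38-fold (log2 fold change 1.76 ± 0.29, adjusted p = 0.00482) and held with each Cre- library left out, though not in edgeR on the 2 Cre- groups alone (adjusted p = 0.0877), in which Nfkbia and Nfkb2 were not called either (adjusted p = 0.134 and 0.13). Ikbke was 2.63-fold lower in Cre+ mice under MPTP (log2 fold change -1.40 ± 0.263, adjusted p = 0.0236), which was not called without Cre- MPTP replicate 3 (-1.09, adjusted p = 0.0502), nor without Cre+ MPTP replicate 1, 3 or 4 (adjusted p = 0.0906, 0.0882 and 0.0757).

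Among the subunits, Nfkb2 (chr19:46304737-46312090, plus strand) alone was called. It encodes the precursor p100, which retains RELB in the cytoplasm and is processed to p52 in the noncanonical branch of the pathway. Its CPM values were 4.8, 4.95 and 6.57 in Cre- Saline, 5.08, 4.88 and 3.61 in Cre+ Saline, 39.8, 16.8 and 13.5 in Cre- MPTP, and 5.72, 10.6, 5.36 and 8.88 in Cre+ MPTP. The 4 Cre+ MPTP libraries were all above the 3 Cre+ Saline libraries, and it was the only member for which these groups did not overlap (5.06% of all genes were higher and 4.61% lower without overlap there). Nfkb2 rose 4.26-fold with MPTP in Cre- mice (log2 fold change 2.09 ± 0.396, adjusted p = 0.0108) and was 3.04-fold lower in Cre+ mice under MPTP (log2 fold change -1.61 ± 0.356, adjusted p = 0.0445). Without Cre- MPTP replicate 1 the rise was 1.48, still called, and the genotype difference was -1.0 (adjusted p = 0.0517). The rise was not called without Cre- Saline replicate 1 or 2 (adjusted p = 0.0661 and 0.0646), nor the genotype difference without Cre+ MPTP replicate 1, 3 or 4 (adjusted p = 0.149, 0.146 and 0.0906).

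Relb (chr7:19606217-19629438, minus strand), the partner of p52, was likewise highest in the Cre- MPTP libraries. It had 6.62, 7.3 and 7.11 CPM in Cre- Saline, 5.16, 5.57 and 5.71 CPM in Cre+ Saline, 22.3, 9.62 and 9.3 CPM in Cre- MPTP, and 5.98, 6.99, 6.29 and 5.49 CPM in Cre+ MPTP. Although all 3 Cre- MPTP libraries lay above all others, the log2 fold change with MPTP in Cre- mice was 0.96 ± 0.288 (adjusted p = 0.121) and the difference between genotypes under MPTP was -1.14 ± 0.267 (adjusted p = 0.0584). Without Cre- MPTP replicate 1 these were 0.44 (adjusted p = 0.0747) and -0.62 (adjusted p = 0.0227). Relb was called higher with MPTP without Cre- MPTP replicate 2 or 3 (adjusted p = 0.0476 and 0.0497) and lower in Cre+ mice without any 1 of the 3 Cre- MPTP libraries. Of all genes, these refits called 372 to 1581 lower in Cre+ mice under MPTP, against 199 with all libraries. DESeq2 and limma voom, each fitted to all 13 libraries, called it in both comparisons, DESeq2 with 0.99 and -1.17 and limma voom with 0.39 and -0.63. Both tools also called more of all genes than edgeR did in these comparisons, as given below. On the 2 groups alone neither DESeq2 (adjusted p = 0.396 and 0.0843) nor edgeR (adjusted p = 0.681 and 0.434) called it. Nor did edgeR with DESeq2 size factors (adjusted p = 0.12 and 0.0605) or with the replicate number as a block (adjusted p = 0.27 and 0.297).

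The remaining subunits were not called in any comparison. Rela, which encodes p65, the main activating subunit, had 30.8, 30.2 and 35.7 CPM in Cre- Saline, 27.5, 33.3 and 29 CPM in Cre+ Saline, 51.8, 33.6 and 31 CPM in Cre- MPTP, and 29.2, 28.8, 28 and 29.7 CPM in Cre+ MPTP. Only Cre- MPTP replicate 1 was outside the range of the saline libraries on the high side. Its log2 fold change was 0.26 ± 0.181 with MPTP in Cre- mice (adjusted p = 0.492) and -0.42 ± 0.168 between genotypes under MPTP (adjusted p = 0.22). Nfkb1, whose product p105 gives rise to p50, spanned 25.3 to 36.4 CPM over all 13 libraries, and Rel, encoding the c-Rel subunit of lymphoid and myeloid cells, spanned 2.97 to 7.44 CPM. With MPTP in Cre- mice Nfkb1 had a log2 fold change of 0.15 ± 0.155 (adjusted p = 0.652) and Rel 0.30 ± 0.312 (adjusted p = 0.651).

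**Figure D2:**
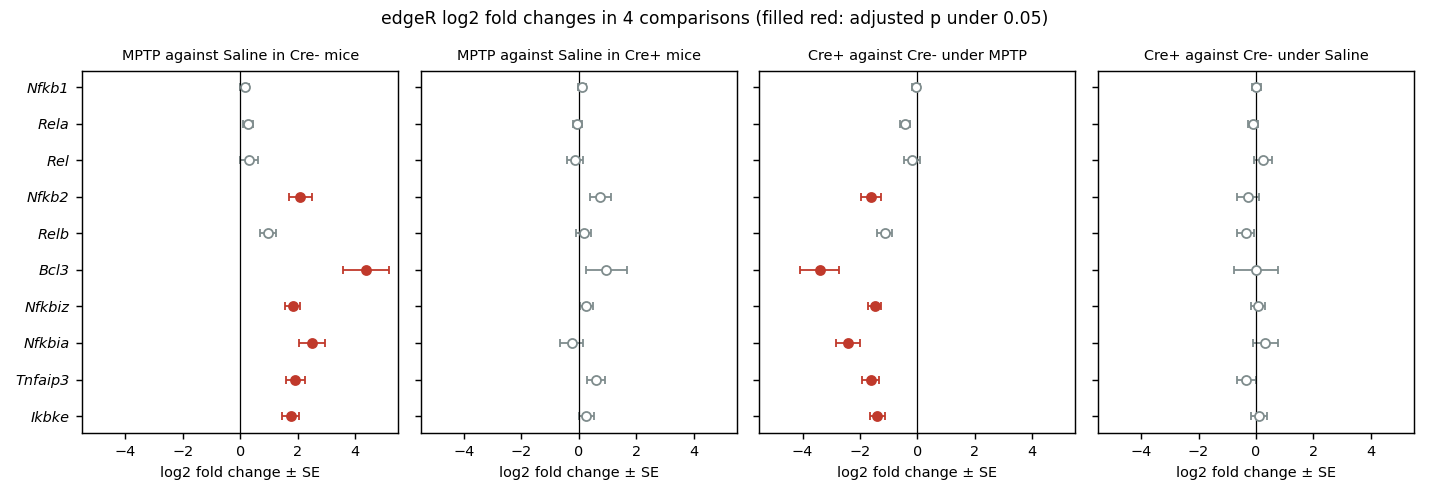
Log2 fold change ± SE of the 10 members in 4 comparisons from edgeR, on a shared axis, with filled red points for an adjusted p under 0.05. The 6 filled points on the right of 0 in the Cre- comparison, from Ikbke at 1.76 to Bcl3 at 4.37, belong to the genes with filled points on the left of 0 between genotypes under MPTP, and no point is filled in Cre+ mice or under saline.

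In Cre+ mice the response to MPTP was not called for any member by edgeR, DESeq2 or limma voom, where edgeR called 0 of all 19360 genes. DESeq2 on all 13 libraries called 75 genes higher and 8 lower of 18802 there, and limma voom 183 and 111 of 19360. DESeq2 on the 2 Cre+ groups alone called 204 genes higher and 116 lower of 18351, and no member. No member had an unadjusted edgeR p under 0.05, as 3.47% of all genes had. The log2 fold changes ran from -0.25 for Nfkbia to 0.96 for Bcl3, with Nfkb2 at 0.75 (unadjusted p = 0.0627) and Tnfaip3 at 0.61 (unadjusted p = 0.0778). The value for Bcl3 came from Cre+ MPTP replicate 2 and was -0.13 without that library. Under saline no member was called between the genotypes by any of the 3 tools (0% of all genes by edgeR), with 0 members at an unadjusted edgeR p under 0.05 (0.909% of all genes). Relb was the only member without overlap between the saline groups, lower in Cre+ mice (log2 fold change -0.36, adjusted p = 1), as 5.71% of all genes were (5.91% were higher without overlap).

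Whether the response to MPTP itself differed between genotypes was tested as an interaction. edgeR called 0 members (0.0103% of all genes were called, all above 0), with 6 at an unadjusted p under 0.05 (5.76% of all genes), which were Bcl3, Nfkbia, Nfkbiz, Ikbke, Nfkb2 and Tnfaip3. The interaction was -3.41 ± 1.03 for Bcl3 (adjusted p = 0.417), -2.73 ± 0.595 for Nfkbia and -1.56 ± 0.34 for Nfkbiz (adjusted p = 0.164 for both), and all 10 estimates were below 0. DESeq2 on all 13 libraries called 4 (Nfkbia, Nfkbiz, Ikbke and Bcl3) and limma voom called 5, the same 4 with Tnfaip3. Of all genes, DESeq2 called 83 above 0 and 140 below of 18802, and limma voom 291 above and 398 below of 19360. edgeR without Cre- MPTP replicate 1 called Nfkbia (-1.95), and without Cre+ MPTP replicate 2 it called Bcl3, Tnfaip3 and Nfkbiz (-4.47, -1.73 and -1.80). The first refit called 96 of 19311 genes above 0 and 103 below, and the second 6 and 52 of 19268.

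The genotype difference under MPTP was the comparison that most depended on single libraries. Of the members, 8 did not overlap between the groups, all lower in Cre+ mice (5.07% of all genes, with 6.25% higher), and 8 had an unadjusted p under 0.05 (19% of all genes). edgeR called 0 members without Cre+ MPTP replicate 1 or 3 and only Nfkbiz without replicate 4, against 6 or 7 when any other MPTP library was left out. Saline libraries were not left out for this comparison. The number of genes called lower among all genes moved as well, from 199 to 24, 21 and 67 without Cre+ MPTP replicates 1, 3 and 4. It was 222 of 19268 without Cre+ MPTP replicate 2. Without Cre- MPTP replicates 1, 2 and 3 it was 372 of 19311, 1581 of 19205 and 447 of 19182. In the refits without Cre+ MPTP replicate 1, 3 or 4 the log2 fold changes stayed between -3.19 and -1.29 for the 6 genes and the sign of each was kept. edgeR fitted to the 2 MPTP groups alone called 0 members and 0 genes, whereas DESeq2 on the same 2 groups called the 6 named genes. Of all 17906 genes, that DESeq2 fit called 138 higher and 263 lower.

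**Figure D3:**
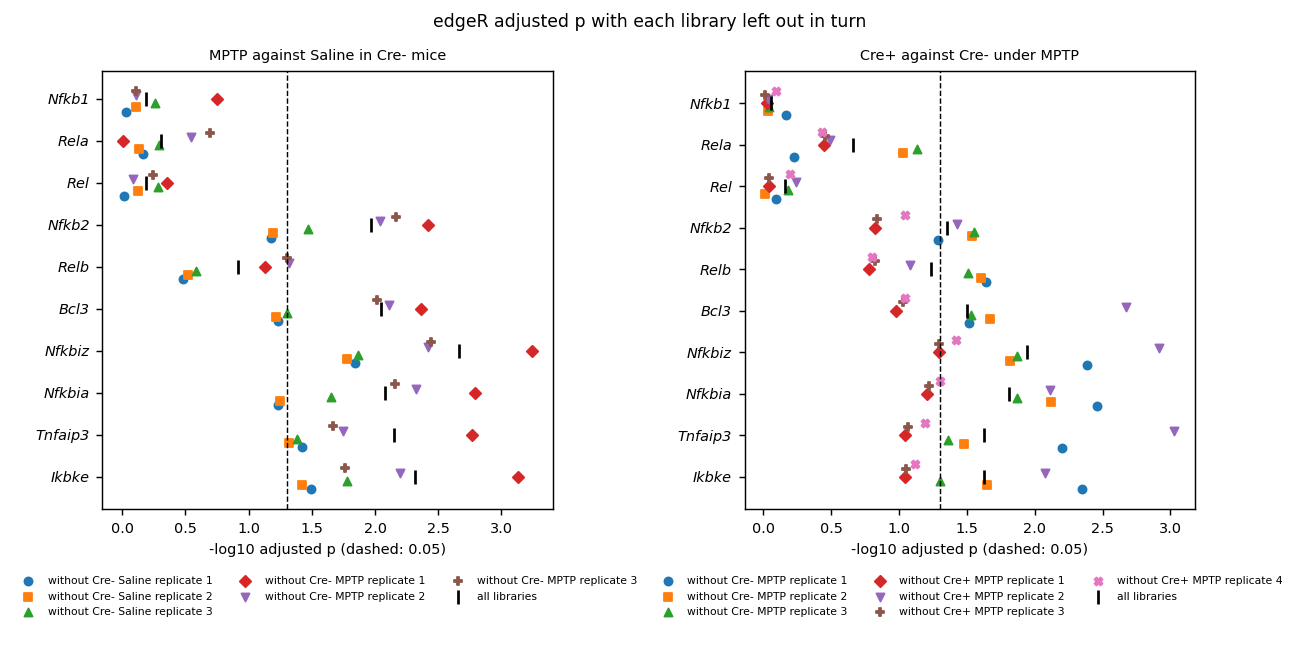
The -log10 adjusted p of each member in edgeR with all libraries (black tick) and with each library of the groups compared left out in turn (symbols); the dashed line marks 0.05. In Cre- mice Nfkbiz, Tnfaip3 and Ikbke stay right of the line in every refit, while between genotypes under MPTP the refits without Cre+ MPTP replicate 1, 3 or 4 put every member left of the line, except Nfkbiz without replicate 4.

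The order of the levels could be compared between genes per length, as reads per kilobase of exon, scaled for depth as for CPM (RPKM). In Cre- Saline, Nfkbia (14.8 ± 4.84 RPKM, SD, n = 3) and Rela (11.9 ± 1.12) were the most abundant and their ranges overlapped, followed by Nfkb1 (2.5 ± 0.379), Relb (1.8 ± 0.0899) and Nfkb2 (1.65 ± 0.298), with Nfkbiz, Rel, Tnfaip3, Bcl3 and Ikbke each under 1 RPKM on average. The ranges of Relb (1.7 to 1.88 RPKM) and Nfkb2 (1.46 to 2 RPKM) overlapped. Bcl3 (0.427 ± 0.0548) and Ikbke (0.417 ± 0.0907) were within each other's spread. In Cre- MPTP the order became Nfkbia (83.2 ± 60.9 RPKM), Rela (14.3 ± 4.17), Bcl3 (8.97 ± 7.73) and Nfkb2 (7.11 ± 4.36), and the large SDs of Nfkbia, Bcl3 and Nfkb2 were those of replicate 1. Bcl3 and Nfkb2 were within each other's spread there, Bcl3 at 17.9, 4.72 and 4.29 RPKM and Nfkb2 at 12.1, 5.1 and 4.11 RPKM. In Cre+ MPTP the mean of Bcl3 (0.859 ± 0.937 RPKM) rested on replicate 2, the single values being 0.418, 2.26, 0.269 and 0.493 RPKM.

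The makeup of the subunit transcripts moved with these levels. Rela made up 66.7%, 62.5% and 63.6% of the summed RPKM of the 5 subunits in Cre- Saline and 47.8%, 51.6% and 52.5% in Cre- MPTP. Nfkb2 made up 8.58%, 8.46% and 9.64% in Cre- Saline and 30.4%, 21.3% and 18.9% in Cre- MPTP. In Cre+ mice Nfkb2 held 9.35%, 8.02% and 6.74% under saline and 10.1%, 16.7%, 9.79% and 14.3% under MPTP, above every saline library but below every Cre- MPTP library. The ratio of Nfkbia to Rela in RPKM was 1, 1.14 and 1.54 in Cre- Saline, 1.74, 1.59 and 1.74 in Cre+ Saline, 8.05, 3.89 and 4.21 in Cre- MPTP and 1.19, 2.27, 1.45 and 0.996 in Cre+ MPTP. The inhibitor transcript thus rose relative to that of its main target in every Cre- MPTP library, and no other library reached their range.

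**Figure D4:**
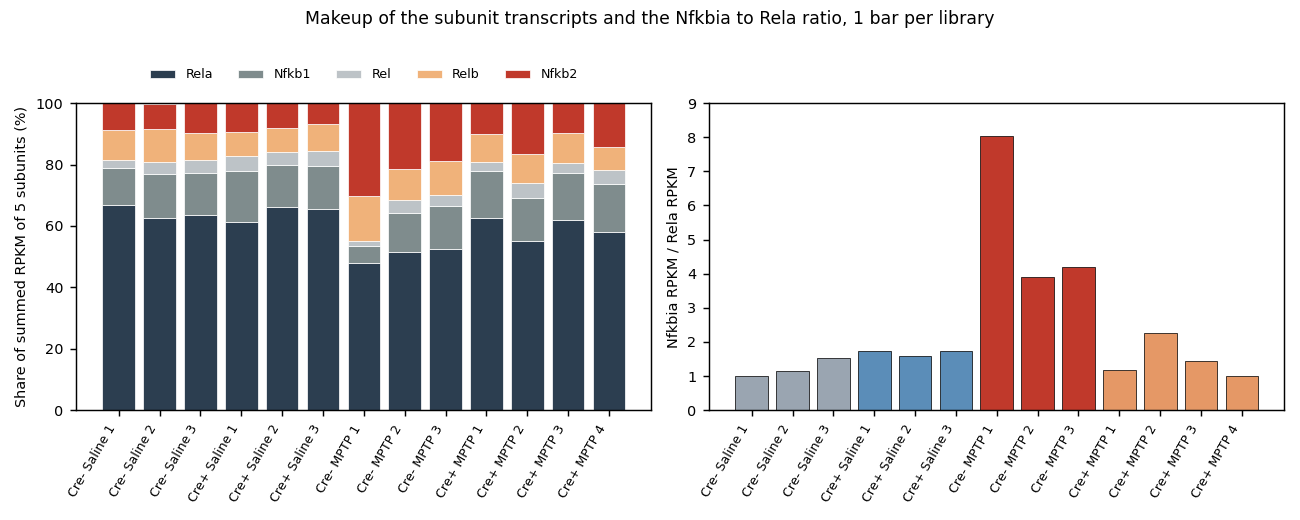
Left, the share of the summed RPKM of the 5 subunit genes held by each subunit (stacked bars from 0 to 100%), and right, the ratio of Nfkbia RPKM to Rela RPKM, with 1 bar per library. The 3 Cre- MPTP libraries have the largest Nfkb2 shares (18.9% to 30.4%) and the highest ratios (3.89 to 8.05), and replicate 1 is the extreme of both.

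Promoter windows of 300 bases (250 before to 50 after the transcription start) from RefSeq, on GRCm38.p6, were at hand for 7 members: Nfkb2, Rela, Rel, Bcl3, Nfkbia, Tnfaip3 and Ikbke. The 10-base κB consensus was found, on either strand, in the windows of 5 of them, Nfkb2, Rel, Bcl3, Nfkbia and Tnfaip3, and in 5.14% of the 27025 genes with a window. The looser form GGGNNNNNCC, whose matches can overlap those of the consensus, was in 6 of the 7 and in 53.5% of all genes. For each of the 5 genes 1 site is printed to show how the letters vary between them, 5′ to 3′ on the strand of the gene, with the bases covered by matches to the consensus in capitals (overlapping matches in Nfkb2 and Rel). The Tnfaip3 and Bcl3 sites overlap the gene as annotated in the files, and the other 3 lie upstream of it.
Nfkbia, chr12:55492657-55492686, minus strand: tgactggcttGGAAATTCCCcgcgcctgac
Nfkb2, chr19:46304689-46304717, plus strand: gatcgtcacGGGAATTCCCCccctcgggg
Tnfaip3, chr10:19015403-19015432, minus strand: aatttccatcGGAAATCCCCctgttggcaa
Bcl3, chr7:19822734-19822763, minus strand: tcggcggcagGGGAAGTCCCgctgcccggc
Rel, chr11:23771042-23771070, minus strand: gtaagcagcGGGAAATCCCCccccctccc
Of the 7 genes, Nfkb2, Bcl3, Nfkbia and Tnfaip3 held a match and were called, Rela held none and was not called, Rel held a match and was not called, and Ikbke rose in Cre- mice with no match in its window. A match is a description of the letters and was not tested as a binding site.

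Other genes of the pathway were read from the same fit by list. Of 5 activating ligands tested, 2 rose with MPTP in Cre- mice: Tnf, from 0 to 0.0396 CPM in Cre- Saline to 0.108 to 0.792 CPM, and Tnfsf11, which encodes RANKL, from 0 to 0.073 CPM to 0.831 to 5.2 CPM. Both rest on few reads, at most 2 a library in Cre- Saline. Tnf was not called if 1 of the Cre- Saline libraries was dropped, whichever it was (adjusted p up to 0.14). Nor was Tnfsf11 without Cre- Saline replicate 1 or 2 (adjusted p up to 0.0806). Tnfsf11 passed the filter only through the Cre- MPTP libraries, with at most 5 reads a library in the other groups. It was not tested without any 1 of them, and Tnf was not tested without Cre- MPTP replicate 2 or 3. Of 12 receptors, 6 rose, among them Cd14, the lipopolysaccharide co-receptor (log2 fold change 2.86), Tlr2 (2.35) and Tnfrsf1a, the main TNF receptor (2.13), and these 3 were lower in Cre+ mice under MPTP (-2.08, -1.52 and -1.87), Tlr2 not without Cre+ MPTP replicate 1, 3 or 4 (adjusted p up to 0.143). Without Cre- Saline replicate 1, 2 or 3 the receptors called in Cre- mice were 3, and without Cre- MPTP replicate 1 those lower in Cre+ mice were 5. Of 24 adaptors and kinases between receptor and dimer, 1 rose, Myd88 (log2 fold change 1.07, adjusted p = 0.0359), but not if 1 of the Cre- Saline libraries was dropped, whichever it was (adjusted p up to 0.17), while 5 of the list were called without Cre- MPTP replicate 1. The list's median log2 fold change was 0.13.

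Of 16 other inhibitors of the pathway tested, 2 rose in Cre- mice, both in each refit with a library left out. They were Irak3, an inhibitory member of the IRAK family (1.23 to 2.3 CPM in Cre- Saline, 9.73 to 17.1 CPM in Cre- MPTP, log2 fold change 2.89 ± 0.394), and Zc3h12a, encoding the RNase regnase-1 (0.674 to 1.35 CPM and 4.99 to 9.31 CPM, log2 fold change 2.56 ± 0.367). Both were lower in Cre+ mice under MPTP (-2.61 and -1.69), the second not without Cre+ MPTP replicate 1, 3 or 4 (adjusted p up to 0.0911), and 4 inhibitors were called lower without Cre- MPTP replicate 2. Of 24 target genes tested, 14 rose and 1 fell in Cre- mice (median log2 fold change 3.16, also with Cxcl2, at 0 in Cre- Saline, put at its lower bound) and 6 were lower in Cre+ mice under MPTP (median -2.13). Icam1, the leukocyte adhesion molecule, went from 3.13 to 3.83 CPM to 52.2 to 68.9 CPM, with 5.5 to 19.8 CPM in Cre+ MPTP, and Lcn2, the siderophore-binding lipocalin, from 0.159 to 0.985 CPM to 460 to 630 CPM, with 15.4 to 153 CPM in Cre+ MPTP. Plau, the urokinase gene, was the target that fell (log2 fold change -1.49, adjusted p = 0.0296), and it was not called once replicate 2 or 3 of Cre- MPTP or replicate 1 or 2 of Cre- Saline was left out. With single libraries left out the targets called higher in Cre- mice were 10 to 17, and those lower in Cre+ mice were 1 without Cre+ MPTP replicate 1 or 3, 2 without replicate 4, 14 without replicate 2 and 11 without Cre- MPTP replicate 1 or 2. With MPTP in Cre+ mice and between the genotypes under saline edgeR called 0% of all genes, and so no gene of these lists.

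**Figure D5:**
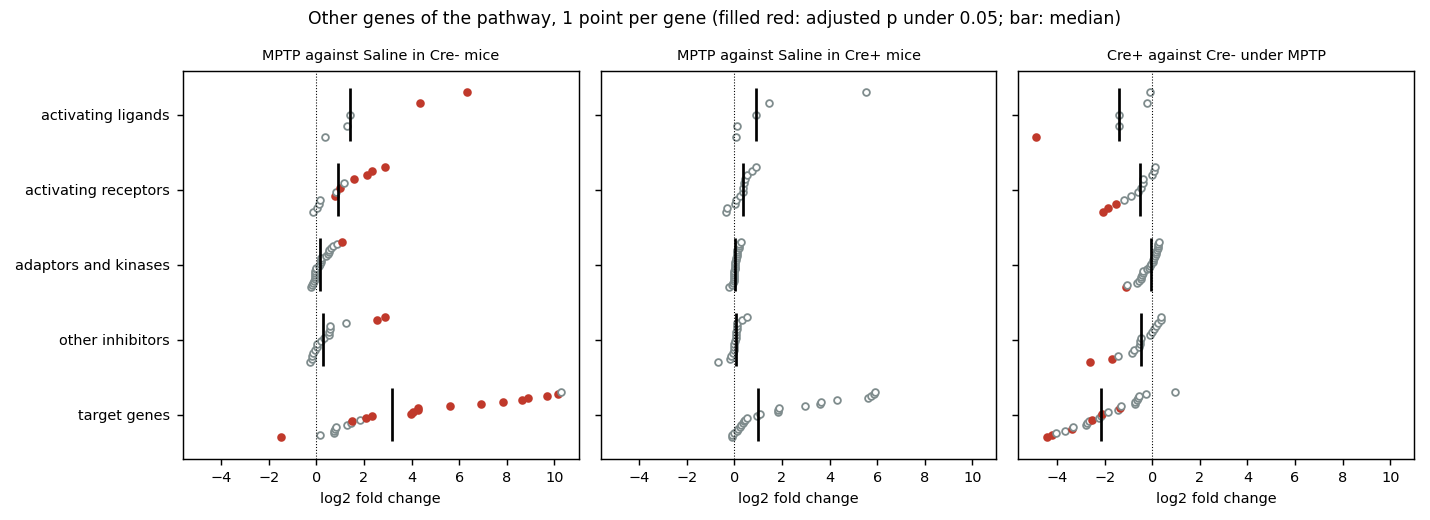
Log2 fold changes of the other pathway genes by list, 1 point per gene, filled red for an adjusted p under 0.05, with a bar at the median of the list. Filled points lie among receptors, inhibitors and above all target genes in Cre- mice, and the median of the adaptors and kinases is 0.13 there, 0.02 in Cre+ mice and -0.07 between genotypes under MPTP.

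Transcripts of other kinds moved with the members. Of 6 neutrophil markers 5 were tested and 4 rose with MPTP in Cre- mice, but the count was 1 without Cre- Saline replicate 1 or 2, and 2 without Cre- Saline replicate 3 or Cre- MPTP replicate 3. Retnlg, 1 of the 4, passed the filter only through the Cre- MPTP libraries, with at most 5 reads a library in the other groups. It was not tested without any 1 of them. The markers' sum was 14.2, 10.4 and 63.8 CPM in Cre- MPTP against 0.119 to 1.09 CPM in Cre- Saline, 0.244 to 3.04 CPM in Cre+ Saline and 0.534 to 3.86 CPM in Cre+ MPTP. Ly6g was at 0 in Cre+ Saline and at most 0.0989 CPM elsewhere. The highest sum was in Cre- MPTP replicate 3, the library with the most Ikbke but not the most Nfkbia, Bcl3 or Nfkb2. Of 8 glucocorticoid-induced genes, a list that shares no gene with the members, 4 rose in Cre- mice, Fkbp5 with a log2 fold change of 2.75. With single libraries left out the count there was 3 to 6. Between genotypes under MPTP 3 of the 8 were lower in Cre+ mice, and 1 to 6 with single libraries left out. The sum of the 8 was 1990, 1040 and 1030 CPM in Cre- MPTP, 394 to 575 CPM in Cre- Saline and 433 to 608 CPM in Cre+ MPTP. The part of these transcripts in the members' levels was not tested.

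Few markers of resident cells were called. Aldh1l1 was the 1 of 6 astrocyte markers called in Cre- mice (log2 fold change 0.65, not called once replicate 3 of Cre- MPTP or replicate 1 or 2 of Cre- Saline was left out, adjusted p up to 0.226). The median log2 fold change of the 6 there was -0.27, opposite in sign to Aldh1l1. Their sum was 2030, 3960 and 4100 CPM in Cre- MPTP and 3380 to 3950 CPM in Cre- Saline. Among 6 microglial markers P2ry12, the purinergic receptor of resting microglia, fell in Cre- mice (-2.79) and was higher in Cre+ mice under MPTP (2.12), both with each library of the groups compared left out, and the 6 summed to 168 to 230 CPM in Cre- MPTP and 232 to 260 CPM in Cre- Saline. P2ry12 was also called in the interaction (2.26, adjusted p = 0.024), though not in most refits with 1 library left out (adjusted p up to 0.155). Of 6 endothelial markers, 0 were called in Cre- mice and Kdr was higher in Cre+ mice under MPTP (1.28, not called once any 1 Cre+ MPTP library was left out, adjusted p up to 0.0998), the sum being 397 CPM in Cre- MPTP replicate 1 and 194 to 298 CPM in the other libraries. Of 6 markers of monocytes and border macrophages Ly6c2 rose (2.66, below the filter and so not tested without Cre- MPTP replicate 2 or 3) and Mrc1 fell (-1.34, not called once replicate 2 of Cre- MPTP or any 1 Cre- Saline library was left out, adjusted p up to 0.115) in Cre- mice. Under MPTP Mrc1 was higher in Cre+ mice (1.7, adjusted p = 0.0154), but not called without Cre+ MPTP replicate 1 or 3 (adjusted p up to 0.0584). Of the lymphocyte, dopaminergic neuron and muscle markers tested (2 of 6, 6 of 6 and 5 of 5) none was called in any comparison.

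Over the 13 libraries the called members were close to one another in log2 CPM, with Pearson's r of 0.802 to 0.975 between pairs of the 6. This is a description of points that share 4 groups and the depth of the libraries. The gene outside the members with the pattern most like each was Map3k6 for Nfkb2 (r = 0.979), Rhoj for Bcl3 (r = 0.981), Maff for Nfkbia (r = 0.981), Aspg for Nfkbiz (r = 0.988), Zfand4 for Tnfaip3 (r = 0.968) and S100a8 for Ikbke (r = 0.972). Fkbp5, of the glucocorticoid-induced list, came next for Nfkbiz (r = 0.988), and Ddit4, of the same list, was the third for Nfkbia (r = 0.974). Other lists were met as well: S100a8 is of the neutrophil list. Tnfrsf1a, of the receptors, was the third for Nfkb2 (r = 0.974), and Cxcl2, of the target genes, came second for Tnfaip3 (r = 0.967). Ranked by Spearman's rho in place of Pearson's r, 0 of the 18 pairs of a member and a gene found by Pearson's r, 3 per member, were among the 3 most like.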

How the data were processed

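Whole midbrain RNA was made into libraries with a stranded total RNA kit and sequenced as paired reads. The authors trimmed the reads (Trimmomatic 0.36), mapped them to GRCm38 (STAR 2.5.2b) and counted unique hits per gene (featureCounts, Subread 1.5.2). The deposited counts, 1 file per mouse, are whole numbers of reads per gene, not normalized. Ensembl identifiers were named from GENCODE M21 (48970 of 49315 matched).

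Genes that reached 10 counts in 3 or more libraries were tested in 1 fit to all 13 libraries (edgeR 4.0.16, TMM factors, 1 term per group, R 4.3.3), which was tested on simulated data first. CPM and RPKM were computed from the counts with the TMM factors and the files' gene lengths. DESeq2 1.42.0, limma 3.58.1 (voom with quality weights), other filters and size factors, 2-group fits, the replicate number as a block and leaving out each library were the alternatives. For a comparison of 2 groups, only libraries of those groups were left out. With the group mean of each gene subtracted from its log2 CPM, same-numbered libraries of different groups had correlations of -0.179 to 0.184. As each mouse is also distinct, the numbers were not used as pairs.

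Named were all 10 members, Ripk3, up to 3 called genes of the smallest p per list, and up to 3 genes of highest Pearson r per called member, from those with a mean of at least 1 CPM. Plau, Cxcl2 and Ly6g were added after their values were seen. The 6 pathway lists (ligands, receptors, adaptors and kinases, other inhibitors, target genes, glucocorticoid-induced genes) and 8 marker lists, like the members, were chosen with earlier results of these data known. p-values measure the spread between these mice only.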

Additional observations from a re-analysis of the deposited data

Results flagged for a closer look

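In the Cre+ MPTP group replicate 2 was far above the other 3 libraries for 3 of the 10 members. Bcl3 was at 5.59 CPM against 0.665 to 1.22 CPM, Nfkbiz at 8.72 CPM against 4.79 to 5.26 CPM, and Tnfaip3 at 9.05 CPM against 3.32 to 4.28 CPM. In each the gap to the nearest library took 0.887, 0.88 and 0.832 of the group's whole range, above Dixon's 95% critical value for 4 samples. The gaps were taken on CPM, and gaps on log2 CPM, which are smaller shares of the range for high values, were not tested. The 10 members of this group were examined, and the 3 values come from 1 animal. For normally spread values, chance gives such a gap in about 1 group in 20. Summed neutrophil markers were also highest of the group in that library (3.86 CPM against 0.534 to 1.33 CPM), as were the target genes (629 CPM against 325 to 380 CPM) and the glucocorticoid-induced genes (608 CPM against 433 to 456 CPM). Their part in the members' levels was not tested.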

How the results depend on the processing

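Under DESeq2, limma voom, DESeq2 size factors and both other filters on low counts, the members called with MPTP in Cre- mice and between genotypes under MPTP stayed within 1.5 times the 6 reported, and those in Cre+ mice and under saline stayed at 0. DESeq2 and limma voom called more of all genes than edgeR. With MPTP in Cre- mice DESeq2 called 757 higher and 380 lower of 18426, and limma voom 1373 and 1251 of 19360. Between genotypes under MPTP DESeq2 called 269 higher and 565 lower of 18802, and limma voom 488 and 736 of 19360. edgeR on the 2 groups alone called 3 members with MPTP in Cre- mice (Bcl3, Tnfaip3 and Nfkbiz), with 105 higher and 5 lower of 18332 genes. Between genotypes under MPTP it called 0 members and 0 of 18480 genes. Numbers in the labels are not shared animals, and with the replicate block edgeR called 0 members and 0 of 19360 genes between genotypes under MPTP. In deviations from the group means, 5 of the 13 libraries correlated best with a library of their own number. The interaction was called for 4 members by DESeq2 and 5 by limma voom. With single libraries left out, the members called were 3 to 7 (MPTP in Cre- mice), 0 to 7 (genotypes under MPTP) and 0 to 3 (interaction). Of all genes, these refits called 213 to 992 higher with MPTP in Cre- mice, and 21 to 1581 lower in Cre+ mice under MPTP. With Spearman's rho, 0 of the 18 most like pairs were shared. The cause of these shifts was not tested, beyond the smaller number of libraries in the refits that drop some.

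The values whose sign turned were all uncalled, and all but Bcl3 with MPTP in Cre+ mice (0.96) were near 0. Between genotypes under saline, Nfkb1 was -0.05 by limma voom and Bcl3 -0.09 with the replicate block. With single libraries left out, the log2 fold changes spanned, under saline, -0.10 to 0.12 for Nfkb1, -0.09 to 0.18 for Bcl3, -0.03 to 0.29 for Ikbke, -0.03 to 0.17 for Nfkbiz and -0.02 to 0.51 for Rel. With MPTP in Cre+ mice they spanned -0.13 to 1.26 for Bcl3 and -0.12 to 0.03 for Rela. Nfkb1 spanned -0.16 to 0.03 between genotypes under MPTP and -0.17 to 0.06 for the interaction. With 3 or 4 animals a group, differences as small as those of Rela, Rel and Nfkb1 could not be told from 0.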
